A study of Macaca mulatta with 24 samples.

Results

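The genes described here encode metabotropic glutamate receptors, the G protein-coupled receptors for glutamate. GRM2, GRM3, GRM4, GRM5, GRM7 and GRM8 were taken by symbol from the deposited expression values, giving 6 of 17208 genes. Expression was measured by RNA-Seq of the nucleus accumbens core (NAcc) in 24 unrelated adult male rhesus macaques, 1 library each. The study asked which NAcc transcripts differ after a year of voluntary ethanol drinking, and expected glutamate signaling genes among them.

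All animals were trained on operant panels and induced to drink by schedule-induced polydipsia. The 16 drinkers then had 12 months of open access for 22 h a day to 4% (w/v) ethanol beside water. The 8 controls had the same schedule with water on both spouts and received a 10% maltose dextrin solution for calories. Low and binge drinkers formed the LD* group (n = 8, daily intake 0.47 to 2.07 g/kg). Heavy (HD, n = 4) and very heavy (VHD, n = 4) drinkers formed the HD* group, with intakes of 2.74 to 3.09 g/kg in HD and 3.09 to 3.78 g/kg in VHD animals. No abstinence was imposed before necropsy, and about 1 mm³ of the core was dissected, so each library holds RNA of every cell type in the piece. There were 4 cohorts. The controls were 3 in cohort 5, 2 in cohort 7a and 3 in cohort 7b, the LD* animals 2 in cohort 4, 3 in cohort 7a and 3 in cohort 7b, and the HD* animals 4 in cohort 5 and 4 in cohort 7a.

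As background, the family is divided by sequence and coupling. Group I receptors such as GRM5 act through Gq on phospholipase C and sit mainly on the postsynaptic side, where GRM5 drives release of endocannabinoids that dampen glutamate input to accumbens neurons. Group II (GRM2, GRM3) and group III (GRM4, GRM6, GRM7, GRM8) receptors act through Gi/o, lower cyclic AMP and mostly restrain transmitter release, and GRM3 is also found on astrocytes.

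Values were read as TPM (transcript abundance corrected for gene length and scaled so that each animal adds up to the same total), although they were deposited under a name that speaks of normalized counts. Each animal's values added up to between 999998 and 999999.96. Of the 2000 lowest values above 0 in an animal, 1850.0 to 1894 were distinct and none occurred more than 4 times, whereas counts divided by a single factor per animal would repeat. The gene lengths used are not stated, and comparisons of level between genes rest on them. The depth of each library is not given, only an average over libraries, so no counting error is given. Differences are in log2(TPM + 1). All 6 members passed the filter of a mean of at least 1 TPM, as did 13637 genes in all, and adjusted p-values are limma's, corrected over those 13637 genes.

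The libraries were not all alike. The median correlation of a library with the others was 0.924 for Control replicate 6, 0.951 for Control replicate 8 and 0.952 for HD* replicate 8, and 0.960 to 0.984 for the rest. Markers of striatal projection neurons were present in every animal, 10 of 10 above 0, with PENK the most abundant (mean 2638 TPM). Summed over the 10 markers they reached 739.3 TPM in Control replicate 6, 2565 TPM in Control replicate 8 and 3209 to 11202 TPM in the others. Control replicate 6 had the highest oligodendrocyte (10128 TPM) and astrocyte (9699.6 TPM) marker sums of the 24 animals. Markers of cortical excitatory neurons summed to 1.42 to 39.3 TPM in 17 animals and to 106.1 to 872.4 TPM in the other 7, with the highest value in LD* replicate 4.

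GRM3 was the most abundant receptor transcript, at 137.5 ± 29.2 TPM over the 24 animals (mean ± SD). GRM5 followed at 53.7 ± 23.4 TPM, GRM4 at 32.9 ± 13.4 TPM, GRM7 at 17.1 ± 6.29 TPM, GRM8 at 9.49 ± 2.94 TPM and GRM2 at 2.62 ± 2.61 TPM. GRM6, outside the list and known for its role in retinal bipolar cells, averaged 0.214 TPM and was too low for the filter described above. From GRM3 down to GRM8 the order was the same in nearly every animal, although the ranges of neighbours over all animals overlapped at each of these steps. GRM3 exceeded GRM5 in 24 of 24 animals, GRM5 exceeded GRM4 in 23, GRM4 exceeded GRM7 in 23 and GRM7 exceeded GRM8 in 24.

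The receptors differed in how much they varied between animals. The coefficient of variation was 21.2% for GRM3, near the median of 23.6% over the tested genes. It was higher for GRM8 (31.0%), GRM7 (36.8%), GRM4 (40.8%) and GRM5 (43.6%), and reached 99.5% for GRM2. GRM3, GRM4, GRM5, GRM7 and GRM8 varied together. The highest Pearson r among members was that of GRM5 with GRM7 (0.951, n = 24), followed by GRM3 with GRM5 (0.882) and GRM4 with GRM5 (0.830), and the lowest among these 5 genes was that of GRM4 with GRM8 (0.596). GRM2 stood apart, with r from -0.333 to 0.0396 with the other members.

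**Figure D1:**
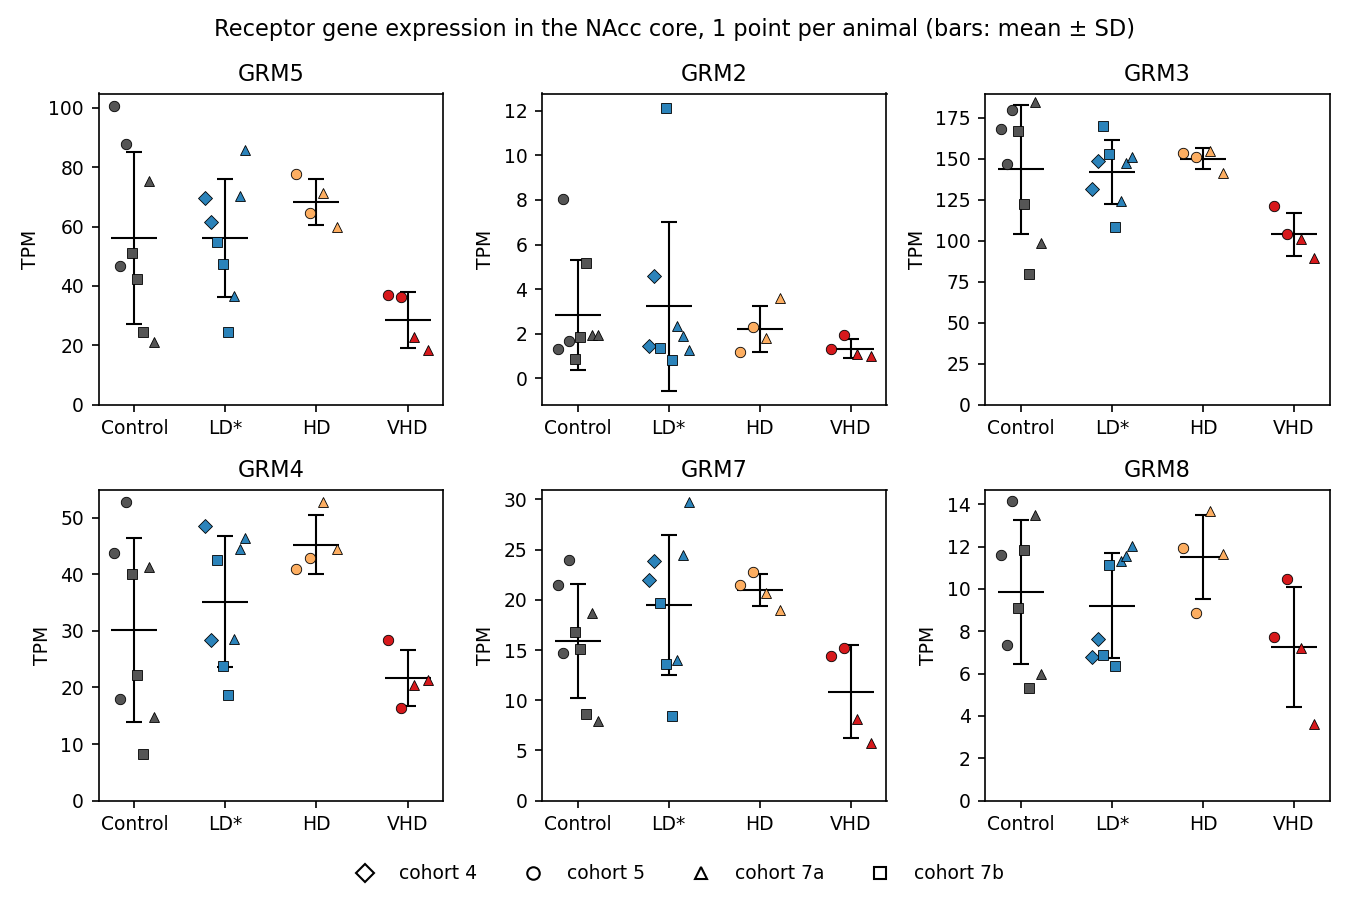
Expression in TPM of the 6 receptor genes in each animal of the Control, LD*, HD and VHD categories (8, 8, 4 and 4 animals), with bars for the mean and SD and symbols for the cohorts. For GRM5, GRM3, GRM4 and GRM7 every VHD animal lies below every HD animal, and for GRM2 LD* replicate 4 lies above all others at 12.1 TPM.

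The group I receptor gene GRM5 had wide and overlapping ranges in the 3 groups. Controls ran from 21.2 to 100.7 TPM (median 49.0), LD* animals from 24.3 to 85.7 TPM (median 58.1) and HD* animals from 18.4 to 77.8 TPM (median 48.4). The lowest control was Control replicate 8 and the lowest LD* animal LD* replicate 5, while the 4 lowest HD* animals were the 4 VHD animals.

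The group II gene GRM2 was low in all groups, with medians of 1.91, 1.67 and 1.56 TPM in controls, LD* and HD* animals. Its lowest and highest values were 0.887 and 8.02 TPM in controls, 0.831 and 12.1 TPM in LD* and 0.996 and 3.62 TPM in HD* animals. A few animals carried the high values, namely LD* replicate 4 (12.1 TPM), Control replicate 2 (8.02 TPM), Control replicate 6 (5.17 TPM), LD* replicate 2 (4.58 TPM) and HD* replicate 7 (3.62 TPM). GRM3 ran from 79.7 to 184.6 TPM in controls (median 157.2), from 108.4 to 170.2 TPM in LD* (median 148.0) and from 89.4 to 155.0 TPM in HD* animals (median 131.1). These ranges overlapped, and the lowest control was Control replicate 6.

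Among the group III genes, GRM4 ran from 8.21 to 52.7 TPM in controls (median 31.1), from 18.7 to 48.5 TPM in LD* (median 35.5) and from 16.4 to 52.7 TPM in HD* animals (median 34.6). GRM7, a low-affinity receptor of the presynaptic active zone, ran from 7.91 to 23.9 TPM in controls (median 15.95), from 8.48 to 29.8 TPM in LD* (median 20.8) and from 5.75 to 22.8 TPM in HD* animals (median 17.1). GRM8 ran from 5.34 to 14.2 TPM in controls (median 10.4), from 6.38 to 12.0 TPM in LD* (median 9.38) and from 3.62 to 13.7 TPM in HD* animals (median 9.67). For all 3 genes the groups overlapped over most of their range. Control replicate 6 was the lowest control for GRM4 and GRM8, and Control replicate 8 for GRM7.

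Between HD* animals and controls, the question of the effect of heavy drinking, no receptor passed the test used here, limma on log2(TPM + 1). The study itself fitted read counts with DESeq2 and listed GRM5 and GRM7 among the genes lower in HD* animals. By qPCR it reported GRM7 as lower and GRM5 as a trend. That fit was not repeated here, since the deposited values are not read counts. GRM2 (-0.33, SE 0.34), GRM5 (-0.19, SE 0.33) and GRM3 (-0.15, SE 0.16) had lower means on the log2 scale in HD* animals, and GRM4 (0.25, SE 0.32) a higher one, n = 8 in each group. GRM7 and GRM8 differed by less, -0.032 (SE 0.28) and -0.070 (SE 0.22), and both signs turned after TMM rescaling (a scaling by trimmed mean ratios between libraries) and without Control replicate 3 or HD* replicate 8, that of GRM7 also without Control replicate 1 or 7 or HD* replicate 6. In limma 0 of 6 members were called at an adjusted p under 0.05 (adjusted p = 0.734 to 0.965), beside 0% of the 13637 genes. At an unadjusted p under 0.05 the counts were 0 of 6 members and 775 genes (5.68%), of which 54 were higher and 721 lower in HD* animals. The 775 became 2161 without HD* replicate 4, 1348 without Control replicate 8, 513 without HD* replicate 5, 482 without HD* replicate 6, 406 without Control replicate 5, 313 without HD* replicate 8, 493 with cohort as a covariate and 178 in cohorts 5 and 7a alone. The members' median difference was -0.11, beside -0.12 over all tested genes, and TMM rescaling moved the latter to 3.97e-05 and the unadjusted calls to 304 higher and 198 lower. The 95% intervals ran from -0.88 to 0.50 for GRM5 and from -0.48 to 0.18 for GRM3, and a p that misses the threshold does not show that values did not differ. Single animals moved these values. GRM4 was 0.034 without Control replicate 6 and 0.40 without Control replicate 3, GRM5 -0.36 without Control replicate 8 and -0.018 without HD* replicate 8, GRM3 -0.26 without Control replicate 6 and -0.081 without HD* replicate 8, and GRM2 -0.12 without Control replicate 2. The sign of GRM4 turned without the 3 least correlated libraries (-0.056) and with the striatal neuron marker score as a covariate (-0.044). Over all alternatives GRM5 ran from -0.445 to -0.018, GRM3 from -0.29 to -0.016, GRM7 from -0.22 to 0.14 and GRM8 from -0.20 to 0.087.

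Cell type markers had different means in HD* animals and controls too. Of the striatal projection neuron markers 10 of 10 had higher log2 means in HD* animals (median difference 0.42), but 6 of 10 without Control replicate 6 (0.031), 7 of 10 with cohort as a covariate (0.065) and 1 of 10 without the 3 least correlated libraries (-0.11). Of the oligodendrocyte markers 10 of 10 were lower (-0.37, and -0.19 without Control replicate 6), of the astrocyte markers 10 of 10 (-0.20) and of the oligodendrocyte precursor markers 4 of 4 (-0.40), where 10608 of the 13637 tested genes were lower. Of the cortical excitatory neuron markers 4 of 5 were lower (-0.26), but 2 of 5 without Control replicate 2 (0.17) or 7 (0.043). In limma 0 markers of these lists passed at an adjusted p under 0.05, and 2 astrocyte and 2 precursor markers had an unadjusted p under 0.05.

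Between LD* animals and controls, the largest mean differences were those of the group III genes GRM4 (0.36, SE 0.32) and GRM7 (0.27, SE 0.28), both higher in LD* animals (n = 8 each). GRM5 (0.091), GRM3 (0.026), GRM2 (0.010) and GRM8 (-0.058) lay close to 0. In limma 0 of 6 members (0% of all genes) were called at an adjusted p under 0.05, with an adjusted p of 1.00 for each. At an unadjusted p under 0.05 there were 0 members and 387 genes (2.84%), 40 higher and 347 lower, and 161 higher and 221 lower after TMM rescaling. The 387 became 706 without LD* replicate 4, 255 without Control replicate 5 or LD* replicate 7, 248 without LD* replicate 1 and 245 without Control replicate 6. The members' median was 0.058, beside -0.025 over all tested genes. GRM4 fell to 0.14 without Control replicate 6, and GRM7 to 0.15 without Control replicate 8, 0.17 without Control replicate 6 and 0.18 without LD* replicate 8, while GRM7 rose to 0.42 without LD* replicate 5. Without the 3 least correlated libraries GRM7 was 0.0094 and the signs of GRM4 (-0.026), GRM3 (-0.19) and GRM5 (-0.27) turned. Leaving out 1 animal also turned the sign of GRM2 (LD* replicate 2 or 4, Control replicate 1, 3, 4, 5, 7 or 8), GRM3 (LD* replicate 3, Control replicate 6 or 8), GRM5 (LD* replicate 8, Control replicate 6 or 8) and GRM8 (LD* replicate 5, Control replicate 3 or 7).

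In LD* animals 10 of 10 striatal projection neuron markers had higher log2 means than in controls (median difference 0.37), but 2 of 10 without Control replicate 6 (-0.016). Lower means were found for 10 of 10 oligodendrocyte (-0.47, and -0.28 without Control replicate 6), 10 of 10 astrocyte (-0.23), 8 of 8 microglia (-0.20) and 4 of 4 oligodendrocyte precursor (-0.21) markers, where 7918 of the 13637 tested genes were lower. None of these markers passed in limma, and 2 astrocyte markers had an unadjusted p under 0.05. The striatal sum ran from 739.3 to 11202 TPM in controls (median 6663), from 3341 to 9926 TPM in LD* (median 6658) and from 3209 to 10250.0 TPM in HD* animals (median 7309). With the striatal neuron score as a covariate, GRM4 was 0.10 and GRM7 0.11 in LD* animals minus controls, and the part of the markers was not tested beyond such fits. Since both comparisons use the same 8 controls, their values are not independent.

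Between HD* and LD* animals, GRM2, GRM3, GRM5 and GRM7 had lower log2 means in HD* animals under every alternative. Those of GRM4 and GRM8 were lower too, but not under every alternative. Only cohort 7a held animals of both groups, so group and cohort cannot be fully told apart. No fit used that cohort alone. The differences were -0.34 for GRM2, -0.30 for GRM7, -0.28 for GRM5, -0.17 for GRM3, -0.10 for GRM4 and -0.011 for GRM8 (n = 8 each). In limma 0 of 6 members (0% of all genes) were called at an adjusted p under 0.05 (adjusted p = 0.937 to 0.993), and 0 members and 147 genes (1.08%) had an unadjusted p under 0.05, 45 higher and 102 lower. With cohort as a covariate these were 126 higher and 530.0 lower, and after TMM rescaling 112 higher and 75 lower. The 147 became 548 without HD* replicate 4, 534 without LD* replicate 5, 92 without LD* replicate 2 and 71 without HD* replicate 8. The members' median was -0.23, beside -0.084 over all tested genes. The sign of GRM8 turned in 9 of 25 alternatives, namely after TMM rescaling (0.063), without the 3 least correlated libraries (0.15), and without HD* replicate 1, 6 or 8 or LD* replicate 4, 6, 7 or 8 (0.014 to 0.15). The 25 include an exact permutation test, which has the same difference in means as the main fit and could not turn sign. Without HD* replicate 4 the sign of GRM4 turned (0.021). GRM2 fell to -0.059 without LD* replicate 4, and without HD* replicate 8 GRM5 fell to -0.11, GRM7 to -0.13 and GRM3 to -0.11. GRM5 was also -0.15 and GRM7 -0.19 without HD* replicate 6, and GRM5 was -0.18 without LD* replicate 8 and -0.43 without LD* replicate 5. With cohort as a covariate GRM5 was -0.67, GRM7 -0.60 and GRM3 -0.35.

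Among the markers, 5 of 5 cortical excitatory neuron markers were lower in HD* than in LD* animals (median difference -0.34), but 1 of 5 without LD* replicate 4 (0.21), the animal without which GRM2 fell to -0.059. Of the oligodendrocyte precursor markers 4 of 4 were lower (-0.18, and -0.058 without HD* replicate 8 or -0.10 without LD* replicate 4), where 9990.0 of the 13637 tested genes were lower. Striatal projection neuron markers (7 of 10 higher, 0.097) turned to 10 of 10 lower with cohort as a covariate (-0.44), and their median also turned without LD* replicate 4 (-0.052) or HD* replicate 2 (-0.0052). None of the markers in these 3 lists passed in limma (0 at an unadjusted p under 0.05). Of the endothelial markers 4 of 5 were lower (-0.034). In limma 0 of them passed and 2 had an unadjusted p under 0.05, beside 1.08% of all genes. Oligodendrocyte (8 of 10 higher, 0.12), microglia (5 of 8 higher, 0.19) and astrocyte markers (7 of 10 lower, -0.068) had 0 under either threshold.

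**Figure D2:**
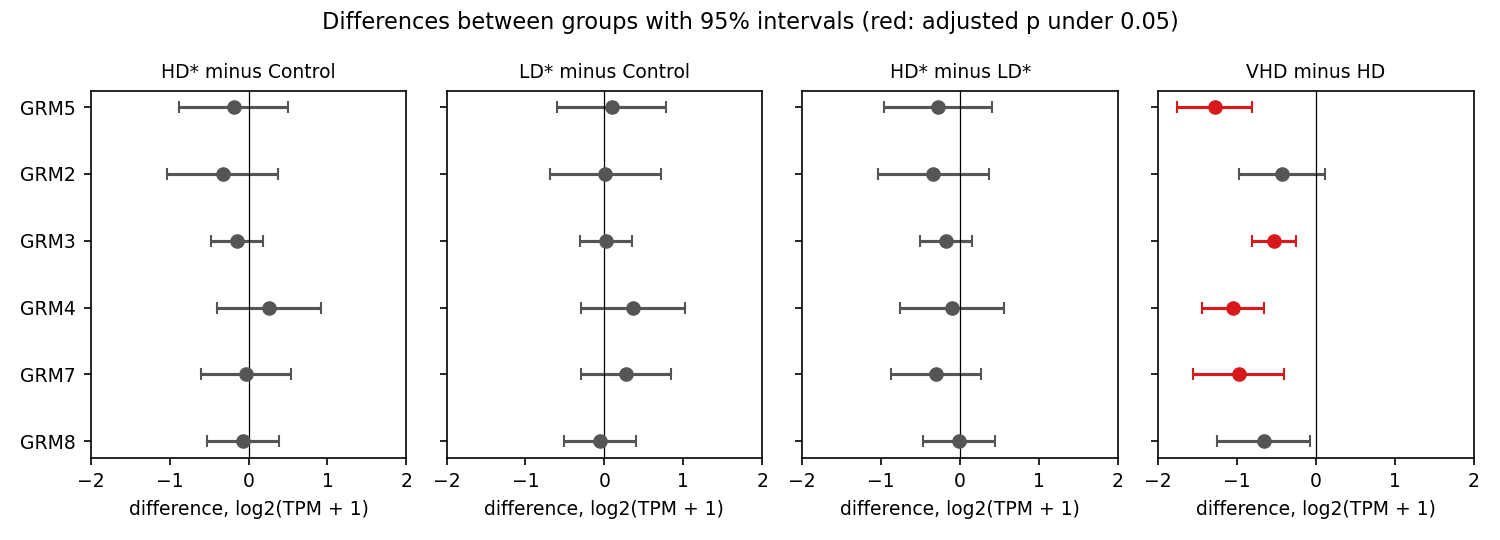
Difference in mean log2(TPM + 1) for the 6 receptor genes in the 4 comparisons, with 95% intervals from limma and red for an adjusted p under 0.05. The intervals of every gene cross 0 in the comparisons of HD*, LD* and Control (8 animals each), while in VHD minus HD animals (4 each, TPM as deposited) only that of GRM2 does and 4 genes are red.

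Within the HD* group, 4 of the 6 receptors split by drinking category. GRM5 was 77.8, 64.7, 71.2 and 59.8 TPM in the HD animals (HD* replicates 2, 3, 5 and 7) and 37.1, 36.2, 22.7 and 18.4 TPM in the VHD animals (HD* replicates 1, 4, 6 and 8). Every VHD animal lay below every HD animal, and the mean in VHD was 0.419 times that in HD animals (log2 difference -1.28, SE 0.22, 95% interval -1.76 to -0.80, n = 4 each, limma adjusted p = 0.00641). In the same order of animals, GRM4 was 40.9, 42.9, 52.7 and 44.4 TPM in HD and 28.3, 16.4, 20.5 and 21.3 TPM in VHD animals. The categories did not overlap here either, with a ratio of means of 0.478 (log2 difference -1.05, SE 0.18, 95% interval -1.44 to -0.66, limma adjusted p = 0.00641).

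GRM7 was 21.5, 22.8, 20.7 and 19.0 TPM in HD and 14.4, 15.2, 8.13 and 5.75 TPM in VHD animals. Both VHD animals of cohort 7a, HD* replicates 6 and 8, were the lowest, and the categories did not overlap (ratio of means 0.517, log2 difference -0.98, SE 0.27, 95% interval -1.56 to -0.40, limma adjusted p = 0.0317). GRM3 was 153.5, 151.2, 155.0 and 141.1 TPM in HD and 121.2, 104.1, 101.1 and 89.4 TPM in VHD animals. The categories were again apart, by a smaller ratio (0.692, log2 difference -0.53, SE 0.13, 95% interval -0.81 to -0.25, limma adjusted p = 0.0201). GRM3 no longer passed after TMM rescaling (-0.33, adjusted p = 0.0988), and GRM7 no longer passed without the filter on low values (adjusted p = 0.0753).

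The remaining members overlapped between the categories. GRM8 was 11.9, 8.87, 13.7 and 11.6 TPM in HD and 7.73, 10.5, 7.20 and 3.62 TPM in VHD animals, where HD* replicate 4 lay within the HD range (log2 difference -0.66, SE 0.27, limma adjusted p = 0.115). Without that animal GRM8 passed the test (-0.84, adjusted p = 0.0216). GRM2 was 1.17, 2.30, 1.81 and 3.62 TPM in HD and 1.31, 1.95, 1.08 and 0.996 TPM in VHD animals, with HD* replicate 7 the highest (log2 difference -0.43, SE 0.25, limma adjusted p = 0.252, and -0.24 without that animal).

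In this comparison 4 of 6 members were called lower at an adjusted p under 0.05 and 0 higher. Over all 13637 genes 11.4% were called lower and 3.23% higher (1556 and 441 genes, 14.6% together). The same 4 members had every VHD animal below every HD animal, as did 2445 genes (17.9%). The members' median difference was -0.82, beside -0.17 over all tested genes, which TMM rescaling moved to 0.0049 with 1416 genes lower and 1180 higher. Relative to the median gene, the differences were -1.11 for GRM5, -0.88 for GRM4, -0.81 for GRM7 and -0.36 for GRM3. By a two-sided exact permutation test over the 70 arrangements of these 8 animals, GRM3, GRM4, GRM5 and GRM7 each had p = 0.0286, the smallest this design allows, GRM8 had p = 0.0571 and GRM2 p = 0.171.

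The split was in the same direction in both cohorts that hold HD* animals, with 2 HD and 2 VHD animals in each. In cohort 5 and cohort 7a the log2 differences were -0.93 and -1.63 for GRM5, -0.93 and -1.17 for GRM4, -0.55 and -1.41 for GRM7 and -0.44 and -0.63 for GRM3. GRM8 (-0.17 and -1.15) and GRM2 (-0.033 and -0.82) were lower in VHD animals mainly in cohort 7a, and this difference between cohorts was not tested. Leaving out 1 animal at a time, GRM4 (-1.18 to -0.93) and GRM5 (-1.42 to -1.10) passed in 8 of 8 fits. GRM3 (-0.61 to -0.47) and GRM7 (-1.16 to -0.74) passed in 3 of 8 fits. They missed the threshold without HD* replicate 2, 3, 5, 6 or 7, at an adjusted p from 0.0521 to 0.0722 for GRM3 and from 0.0689 to 0.111 for GRM7. The number of genes called, 1997, was 1094 without HD* replicate 2, 681 without replicate 3, 4651 without replicate 4, 607 without replicate 5, 476 without replicate 6 and 723 without replicate 7. Without HD* replicate 8, the least correlated of these libraries, 1813 genes were called and GRM3, GRM4, GRM5 and GRM7 passed.

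A measure of the libraries separated the categories as well. The 10 most abundant genes of a library held 3.93, 3.79, 3.96 and 3.92% of its TPM in the HD animals (HD* replicates 2, 3, 5 and 7) and 4.25, 4.16, 5.42 and 5.92% in the VHD animals (HD* replicates 1, 4, 6 and 8), without overlap. In controls this share ran from 3.67 to 6.33% (median 4.00%) and in LD* animals from 3.53 to 5.43% (median 3.87%). The 8 animals of the 24 with the highest share, which include the 4 VHD animals, were also the 8 with the least GRM5. Over the 24 animals Pearson's r of the share with log2(TPM + 1) was -0.910 for GRM7, -0.886 for GRM5, -0.820 for GRM3, -0.685 for GRM8, -0.683 for GRM4 and -0.179 for GRM2, beside a median of -0.403 over all tested genes, of which 1.14% had a lower r than GRM7 and 3.16% a lower r than GRM5. For GRM3, GRM8, GRM4 and GRM2 a lower r was found in 12.5, 29.3, 29.5 and 62.0% of genes. The part of the share held by the 10 most abundant genes in the receptor differences was not tested.

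Cell type markers moved with this split. Of the striatal projection neuron markers 10 of 10 were lower in VHD animals, 9 at an adjusted p under 0.05 (5 after TMM rescaling), with a median log2 difference of -1.15. Their summed TPM was 9726, 8675, 10250.0 and 9068 in the HD animals (HD* replicates 2, 3, 5 and 7) and 5685, 3209, 4844 and 5944 in the VHD animals (HD* replicates 1, 4, 6 and 8). PENK, the most abundant, averaged 3734 ± 503.2 TPM in HD and 1856 ± 480.2 TPM in VHD animals, and no marker was at 0. The categories did not overlap in this sum. In bulk tissue, fewer cells of a type and less RNA per cell cannot be told apart.

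Astrocyte and microglia markers moved mostly the other way. Of the astrocyte markers 9 of 10 were higher in VHD animals, 2 at an adjusted p under 0.05, with sums of 4111, 3674, 2358 and 3625 TPM in HD and 5331, 8123, 5868 and 5073 TPM in VHD animals, and GFAP the most abundant (1171 against 2911 TPM). Of the microglia markers 7 of 8 were higher, 5 at an adjusted p under 0.05, with sums of 408.6, 485.5, 423.8 and 378.6 TPM in HD and 493.2, 754.1, 858.4 and 631.6 TPM in VHD animals, and C1QB the most abundant (104.9 against 168.8 TPM). Both sums were higher in every VHD animal than in every HD animal, but the scores, which weigh each marker alike, overlapped. The astrocyte score reached 0.038 in HD and went down to -0.27 in VHD animals, and the microglia score reached -0.065 and went down to -0.089. The 5 microglia markers that passed became 2 without HD* replicate 2, 6 or 7 and 3 without replicate 3 or 5, and the 2 astrocyte markers became 1 without replicate 6. Of the oligodendrocyte markers 7 of 10 were lower and 0 were called lower (1 without HD* replicate 2 and 2 without replicate 4), while 1 was called higher (0 without HD* replicate 2, 3, 5, 6, 7 or 8), with overlapping sums of 2931, 4161, 2591 and 4401 TPM in HD and 2505, 5301, 4075 and 2621 TPM in VHD animals. Of the cortical excitatory neuron markers 5 of 5 were lower in VHD animals (median -1.36, and -0.57 without HD* replicate 7), of the oligodendrocyte precursor markers 4 of 4 (-0.45) and of the endothelial markers 4 of 5 (-0.32), where 8893 of the 13637 tested genes were lower. None of them passed in limma (0, 1 and 0 at an unadjusted p under 0.05), although all 4 precursor markers passed without HD* replicate 4.

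With the striatal neuron marker score as a covariate, 0 genes were called between VHD and HD animals (limma, 1931 at an unadjusted p under 0.05). The score is the mean log2(TPM + 1) of the 10 markers, each centred on its mean over the 24 animals, and ran from 0.59 to 0.86 in HD and from -0.77 to -0.028 in VHD animals. The estimates with the covariate were -1.27 for GRM5 (adjusted p = 0.356), -1.32 for GRM7 (0.375), -0.35 for GRM3 (0.544) and -0.20 for GRM4 (0.764), and those of GRM8 and GRM2 grew to -1.35 and -1.34. The score did not overlap between the categories, so this fit cannot tell score and category apart well. Over all tested genes the median difference moved from -0.17 to -0.60 with the covariate. The part of the markers in the receptor differences was not tested beyond this fit.

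Over all 24 animals most receptors moved with the striatal neuron score. In limma 5 of 6 members increased with the score at an adjusted p under 0.05, beside 21.4% of all genes. GRM4 had the steepest slope, 0.71 per unit of score (SE 0.055, adjusted p = 8.06e-11), followed by GRM5 (0.57, adjusted p = 0.000108), GRM7 (0.44, adjusted p = 0.000628), GRM3 (0.29, adjusted p = 4.41e-05) and GRM8 (0.27, adjusted p = 0.0149). GRM2 had a slope of -0.34 (adjusted p = 0.0606, and 0.0365 after TMM rescaling).

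In all, 32 relations were computed, between receptor genes and 4 marker scores, and 1e-05 is the smallest p the permutations can give. For GRM4 and the neuron score, Pearson's r was 0.941 (permutation p = 1e-05) and Spearman's rho 0.896 (permutation p = 1e-05), with r of 0.942 without the 2 animals farthest from the median score. Within cohorts 5, 7a and 7b (7, 9 and 6 animals) r was 0.972, 0.986 and 0.962, and cohort 4 held too few animals. GRM4 thus followed the score in each of these cohorts. For GRM5, r was 0.734 (permutation p = 1e-05) and rho 0.851 (permutation p = 1e-05), with 0.773 without those 2 animals and 0.925, 0.908 and 0.717 within the cohorts. For GRM3, r was 0.784 (permutation p = 2e-05) and rho 0.729 (permutation p = 6e-05), with 0.678 without those animals and 0.870, 0.857 and 0.888 within the cohorts. Both genes kept a positive r in each cohort. For GRM7, r was 0.681 (permutation p = 0.00014) and rho 0.736 (permutation p = 7e-05), with 0.669 without those animals and 0.901, 0.850 and 0.735 within the cohorts. GRM8 was looser, with r of 0.537 (permutation p = 0.00696) and rho of 0.605 (permutation p = 0.00189), 0.406 without those animals, and 0.614, 0.769 and 0.435 within the cohorts. GRM2 had r of -0.421 (permutation p = 0.0485) and rho of -0.310 (permutation p = 0.142), and its sign differed between cohorts (-0.479, 0.301 and -0.540).

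**Figure D3:**
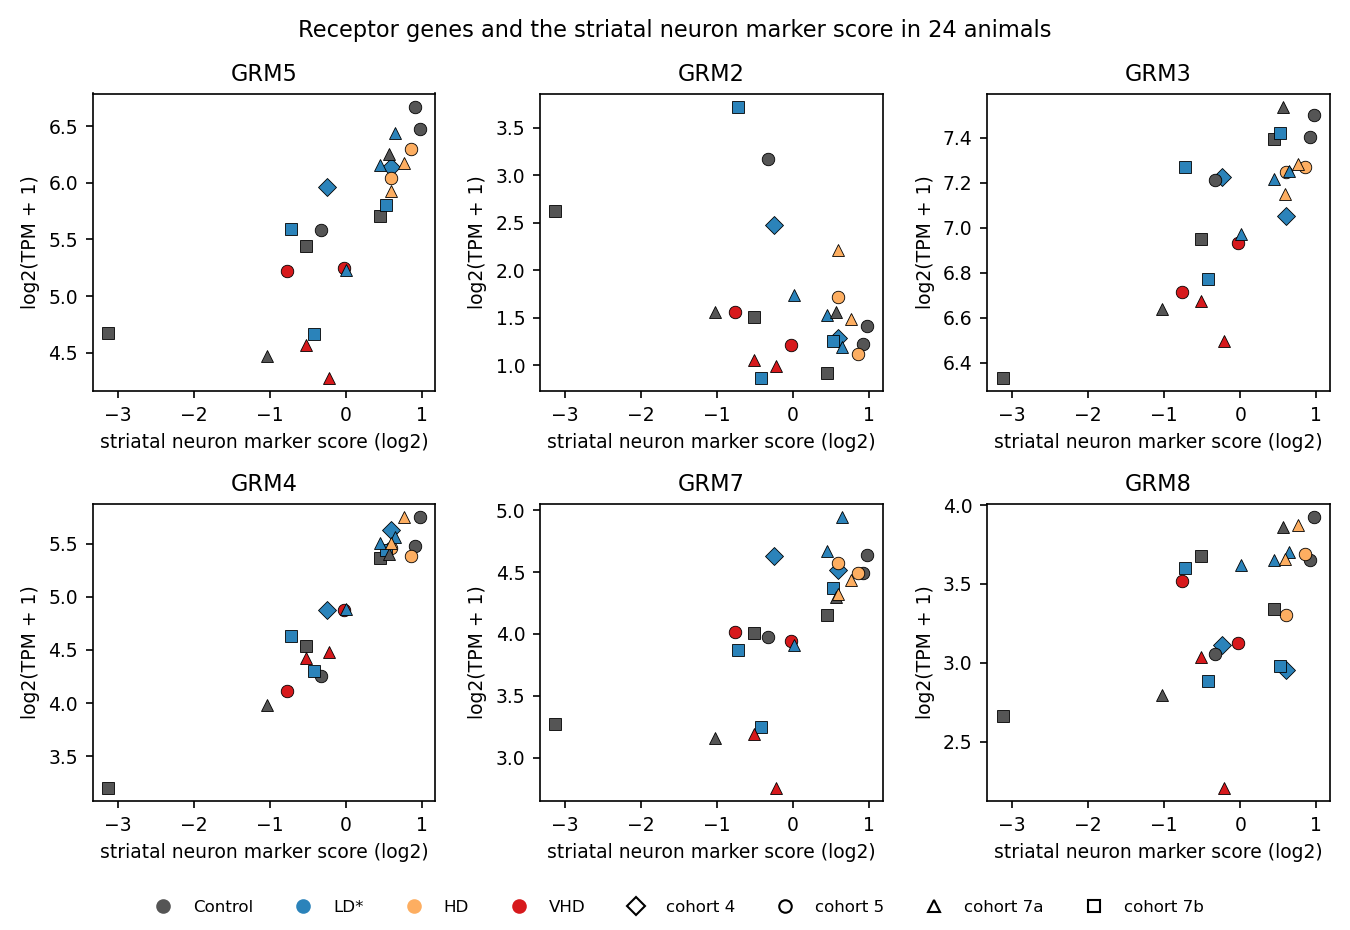
Expression of each receptor gene in log2(TPM + 1) against the striatal neuron marker score (log2 scale, mean of 10 centred markers), 1 point per animal, colors for the drinking category and symbols for the cohort. GRM4 follows the score most closely (r = 0.941, n = 24), and Control replicate 6 lies far to the left at -3.12.

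For the astrocyte score, 2 of 6 members decreased at an adjusted p under 0.05, beside 10.1% of all genes. GRM4 had a slope of -1.52 per unit of score (adjusted p = 0.000105) and r of -0.772 (permutation p = 1e-05, rho -0.837 with permutation p = 1e-05, r -0.682 without the 2 farthest animals, and -0.935, -0.806 and -0.661 in cohorts 5, 7a and 7b). GRM5 had a slope of -1.03 (adjusted p = 0.0264) and r of -0.504 (permutation p = 0.0125, rho -0.592 with permutation p = 0.00311, r -0.430 without those animals, and -0.770, -0.687 and -0.263 in the cohorts). GRM3, the member known from astrocytes, had a slope of -0.44 (adjusted p = 0.0580), which passed after TMM rescaling (-0.52), as did that of GRM7 (-0.74, and -0.81 after rescaling). None of the members increased with the astrocyte score at an adjusted p under 0.05 in limma. For the oligodendrocyte score 0 of 6 members were called in limma, beside 8.03% of all genes, and 1 member (GRM4, -0.48) at an unadjusted p under 0.05, beside 21.7% of all genes.

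GRM2 followed the markers of cortical excitatory neurons, a relation examined after the values of GRM2 were seen. This list had a mean of at least 1 TPM for 5 of 5 genes, with SLC17A7 the most abundant (mean 79.9 TPM) and NEUROD2 and TBR1 at 0 in some animals. The marker sum was 872.4 TPM in LD* replicate 4, 414.3 in Control replicate 2, 247.6 in LD* replicate 2 and 242.7 in HD* replicate 7, which are 4 of the 5 animals with the most GRM2. Control replicate 6, with 5.17 TPM of GRM2, had a sum of 8.53 TPM. In limma 1 of 6 members, GRM2, increased with this score (slope 0.33, SE 0.052, adjusted p = 0.000489), beside 0.953% of all genes (130 genes). Pearson's r was 0.787 (permutation p = 5e-05) and rho 0.645 (permutation p = 0.00086), with r of 0.586 without the 2 farthest animals and 0.893, 0.717 and 0.831 within cohorts 5, 7a and 7b. The part of these markers in the level of GRM2 was not tested.

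**Figure D4:**
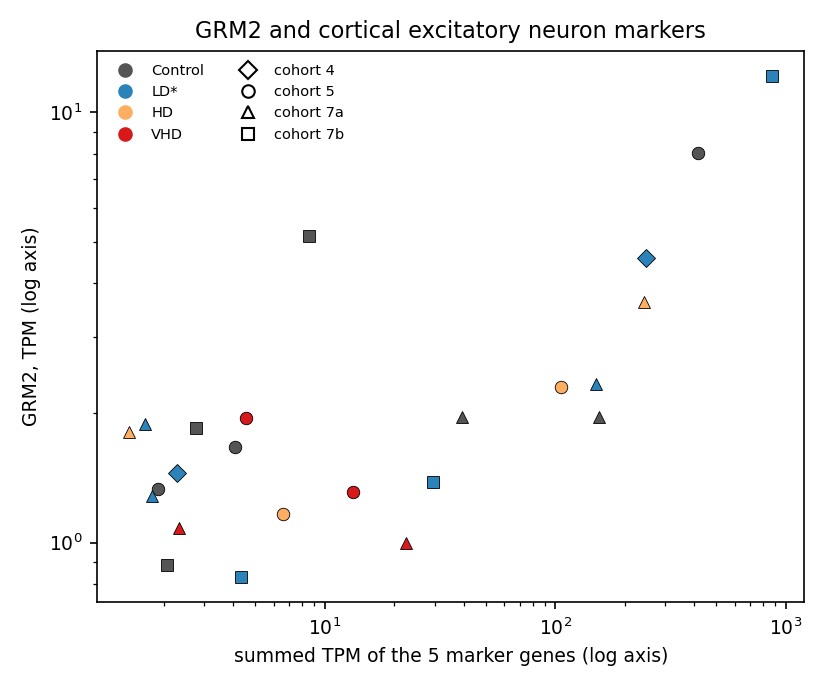
GRM2 in TPM against the summed TPM of the 5 cortical excitatory neuron markers, both on log axes, 1 point per animal. LD* replicate 4 is highest on both axes (12.1 and 872.4 TPM), and Control replicate 6 has 5.17 TPM of GRM2 at a marker sum of 8.53 TPM.

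Daily intake was related to the receptors within the 16 drinkers, with LD* or HD* as a covariate. Cohort was not in this model. The animals with the lowest intakes, LD* replicates 2 (0.47 g/kg) and 1 (1.24 g/kg), were the only animals of cohort 4. The part of cohort in these slopes was not tested. All 6 slopes were negative, although that of GRM8 (-0.036) turned sign in 6 of 18 alternatives. GRM5 had the steepest, -0.69 per g/kg (SE 0.34, 95% interval -1.40 to 0.023, unadjusted p = 0.0571), followed by GRM7 (-0.59, SE 0.32, unadjusted p = 0.0778). In limma 0 of 6 members (0% of all genes) passed at an adjusted p under 0.05 (adjusted p = 0.498 to 0.958), and 0 members and 1107 genes (8.12%) had an unadjusted p under 0.05. The members' median slope was -0.38, beside -0.11 over all tested genes. The slopes depended on single animals. Without LD* replicate 2, which had the lowest intake, they were -1.24 for GRM5 (limma unadjusted p = 0.0169), -1.09 for GRM4 (limma unadjusted p = 0.0106), -0.88 for GRM7, -0.44 for GRM3, -0.28 for GRM8 and -0.018 for GRM2. Without LD* replicate 5, GRM4 moved from -0.41 to -0.27 and GRM2 from -0.35 to -0.18, and without LD* replicate 4 GRM2 moved to -0.56 (limma unadjusted p = 0.0296). Without LD* replicate 8, GRM5 (limma unadjusted p = 0.0252) and GRM7 (0.0347) also fell under 0.05. GRM5 did so without HD* replicate 6 (limma unadjusted p = 0.0376) or LD* replicate 7 (0.0419) too. The lowest adjusted p of a member in any of these fits was 0.294 (limma). Without the group term the slopes were -0.29 for GRM5, -0.28 for GRM7 and -0.14 for both GRM3 and GRM4, and TMM rescaling moved GRM3 from -0.25 to -0.12. Leaving out 1 drinker at a time, 300.0 (without LD* replicate 5) to 2263 genes (without LD* replicate 2) had an unadjusted p under 0.05, with 659 without LD* replicate 1, 653 without HD* replicate 2, 609 without HD* replicate 5, 662 without LD* replicate 6 and 1672 without LD* replicate 8.

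Cohorts were compared with group in the model. GRM5 averaged 65.6 ± 5.86 TPM in cohort 4 (n = 2), 64.5 ± 25.5 in cohort 5 (n = 7), 51.3 ± 26.5 in cohort 7a (n = 9) and 40.7 ± 13.3 in cohort 7b (n = 6). Both cohort 4 animals lay above all of cohort 7b, while cohorts 5 and 7a overlapped both. GRM7 had the same order, from 22.9 ± 1.34 TPM in cohort 4 to 13.7 ± 4.47 TPM in cohort 7b. Of the 6 members 0 (0% of all genes) differed between cohorts in limma at an adjusted p under 0.05 (adjusted p = 0.540 to 0.957), and 0 members and 1140 genes (8.36%) did at an unadjusted p under 0.05. The HD* effect in cohort 5 minus that in cohort 7a ran from -0.55 for GRM4 to -0.00053 for GRM8. This effect differed between cohorts for 0 of 6 members (limma, 0% of all genes) at an adjusted p under 0.05, with an adjusted p of 1.00 for each, and 0 members and 294 genes (2.16%) at an unadjusted p under 0.05.

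Each receptor had close companions across the 24 animals, described by Pearson's r on log2(TPM + 1). For GRM5 they were MACROD2 (0.986), EPT1 (0.984) and USP48 (0.984), and 860 of 13636 genes (6.31%) exceeded 0.9. For GRM7 they were LRRC4C (0.985), TCF20 (0.974) and TEX10 (0.973), with 700 genes (5.13%) above 0.9. For GRM4 they were ZFYVE28 (0.984), PHYHIP (0.982) and ANXA11 (0.982), with 257 genes (1.88%) above 0.9. Such counts were made for the members alone, so these shares have no baseline from other genes. The other members had fewer companions. For GRM3 the nearest were MID1 (0.924), SORBS2 (0.923) and PAK7 (0.922), with 37 genes above 0.9. For GRM2 they were ADRA1B (0.938), SOWAHB (0.936) and ADAM11 (0.927), with 11 genes above 0.9. For GRM8 they were S100PBP (0.864), ZNF436 (0.863) and LRRC8B (0.859), with 0 genes above 0.9.

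Opposite patterns were close too. The most negative r were those of GRM5 with NME4 (-0.964), SSR4 (-0.960) and SERF2 (-0.957), of GRM4 with PDZD11 (-0.950), PSME1 (-0.945) and HDDC2 (-0.943), of GRM7 with SERF2 (-0.950), SEPW1 (-0.949) and EEF1D (-0.936), and of GRM3 with GPX4 (-0.923) and ATOX1 (-0.904). Below -0.9 lay 67 genes for GRM5, 37 for GRM7, 21 for GRM4 and 3 for GRM3, and 0 for GRM2 and GRM8, whose lowest r were those with SHFM1 (-0.770) and C1orf162 (-0.791).

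The genes through which the receptors act were given by 6 lists, of which 50 genes were tested. Between HD* animals and controls 0 of 50 passed in limma (0 higher and 2 lower at an unadjusted p under 0.05, beside 5.68% of all genes), between LD* animals and controls 0 of 50 (0 and 2, beside 2.84%), and between HD* and LD* animals 0 of 50 (0 and 1, beside 1.08%). These few genes are given by name only as those with the smallest p. GNAI3, a Gi subunit, had lower log2 means in HD* animals (-0.32, limma unadjusted p = 0.0267) and in LD* animals (-0.31, limma unadjusted p = 0.0316) than in controls. RIMKLB, an enzyme that makes the GRM3 ligand NAAG, differed by -0.31 between HD* animals and controls (limma unadjusted p = 0.0342). SLC7A11, the cystine-glutamate exchanger, differed by -0.49 between LD* animals and controls (limma unadjusted p = 0.0459), and DLGAP1, a postsynaptic scaffold gene, by -0.49 between HD* and LD* animals (limma unadjusted p = 0.0365). GNAI3 averaged 13.1 ± 2.10 TPM in controls, 10.4 ± 2.10 TPM in LD* and 10.4 ± 2.89 TPM in HD* animals (n = 8 each). The adjusted p of these genes was 0.706 or higher.

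Between VHD and HD animals 15 of the 50 genes passed, 14 lower and 1 higher, where over all tested genes 14.6% passed, 11.4% lower and 3.23% higher, and the median over the 50 was -0.25, beside -0.17 over all tested genes. The 15 became 24 without HD* replicate 4 and 8 without HD* replicate 5 or 6, and after TMM rescaling 7 were called lower and 4 higher. Of 10 genes of group I coupling, 5 were called lower at an adjusted p under 0.05. Among them were the phospholipase PLCB1 (71.8 ± 7.18 TPM in HD and 31.7 ± 12.2 TPM in VHD animals, log2 difference -1.23), the inositol trisphosphate receptor ITPR1 (-0.95) and DAGLA, which makes the endocannabinoid 2-arachidonoylglycerol (-0.70). Of 10 group I scaffolds and partners, 2 were called lower and 1 higher. HOMER1, which tethers GRM5, ran from 41.7 to 60.2 TPM in HD and from 20.7 to 34.3 TPM in VHD animals (-1.01). NCDN, the most abundant, averaged 2987 ± 229.3 TPM in HD and 1621 ± 502.0 TPM in VHD animals (-0.94), and SHANK1 35.4 ± 3.05 and 80.0 ± 19.98 TPM (1.13). SHANK1 was the gene of the 50 that was called higher.

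Of 12 genes of group II and III coupling, 5 were called lower between VHD and HD animals. These included the Go subunit GNAO1 (385.7 ± 22.7 TPM in HD and 209.3 ± 34.8 TPM in VHD animals, -0.89) and the adenylyl cyclases ADCY9 (-1.03) and ADCY5, the most abundant (449.6 ± 26.7 and 245.0 ± 51.4 TPM, -0.90). Of 6 group III partners 1 was called lower (beside 11.4% of all tested genes), PICK1, a PDZ protein that binds GRM7 (-0.63). PPP1CA, the most abundant, was 162.4 ± 7.10 TPM in HD and 171.9 ± 15.2 TPM in VHD animals. Of 6 genes of receptor desensitisation 1 was called lower, RGS4, a regulator that shortens Gi/o and Gq signals (142.1 ± 43.8 and 43.6 ± 13.7 TPM, -1.70). RGS2, the most abundant, averaged 216.6 ± 28.7 and 169.8 ± 51.3 TPM. Of 6 genes of ligand supply 0 passed in limma (1 at an unadjusted p under 0.05), and SLC3A2, the most abundant, averaged 126.8 ± 8.62 and 109.6 ± 15.7 TPM. Directions differed between the lists. Of the genes of group I coupling 9 of 10 were lower and of those of group II and III coupling 8 of 12, where 8893 of the 13637 tested genes were lower, while group I scaffolds were 5 higher and 5 lower and desensitisation genes 4 higher and 2 lower. With the striatal neuron score as a covariate 0 of the 50 passed in limma (7 at an unadjusted p under 0.05). That score did not overlap between HD and VHD animals, so this fit cannot tell score and category apart well. The part of the striatal neuron markers in these lists was not tested further. Those pathway genes not chosen as most abundant or by an unadjusted p were picked as examples after their values were seen.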

How the data were processed

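The authors aligned polyA-selected RNA-Seq reads with STAR 2.5.2b to the MacaM assembly and counted genes with HTSeq 0.6.1p1. The deposited values were made by the authors in a way not stated, 1 column per animal, and were read as TPM. The depth of each library is not given. Values were used as log2(TPM + 1). Genes averaging 1 TPM or more (13637) were fitted with limma 3.58.1 (R 4.3.3, empirical Bayes with a trend, Benjamini-Hochberg), with all 3 groups in 1 model and the 8 HD* animals alone for VHD minus HD. Exact permutation tests, correlations (100000 permutations) and plots used Python 3.11.15, numpy 2.4.6, pandas 2.3.3, scipy 1.17.1 and matplotlib 3.10.9. The tests were tested on simulated data. For limma these were drawn independently for each gene, whereas many measured genes varied together. The rate of false calls in the measured data was therefore not shown.

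Members and lists were chosen with earlier results of these data known. Named genes are all members, the most abundant gene of each list, pathway genes with the 3 smallest p of those with an unadjusted p under 0.05 between HD*, LD* and Control, and the 3 genes most correlated with each member. Further pathway genes called between VHD and HD animals were named after their values were seen, as were the genes of lowest r. A few genes that this rule names are not reported. The lists are 6 of pathway genes and 7 of markers for striatal, oligodendrocyte, astrocyte, microglia, endothelial, precursor and cortical cells. KCNJ6 was below 1 TPM, and GRK2, GRK3 and PECAM1 were not found by symbol.

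Alternatives were a pseudocount of 0.1, no filter, a filter of 10 TPM, TMM rescaling (trimming 30% of M and 5% of A values), cohort or marker scores as covariates, only the compared groups, single cohorts, and each animal left out. The exact permutation test of each member was also counted as an alternative in the comparisons of groups or categories, by its unadjusted p. The cortical score, the share of the 10 most abundant genes, leaving out the 3 least correlated libraries, each drinker left out of the intake slope, TMM rescaling for scores and the cohort interaction, and the alternatives for marker and pathway lists were chosen after seeing the data.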

Additional observations from a re-analysis of the deposited data

Results flagged for a closer look

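GRM2 was 12.1 TPM in LD* replicate 4, an animal of cohort 7b with a daily intake of 1.82 g/kg, and 0.831 to 4.58 TPM in the other 7 LD* animals. Its gap to the nearest animal, 0.668 of the whole range of the group, was larger than Dixon's test allows for 8 animals. Of 30 sets of animals examined this way for the 6 receptors, this was the 1 that stood out, and chance alone marks about 1 in 20.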

How the results depend on the processing

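Of 718 estimates for the members under the alternatives, 641 kept their direction and their side of the threshold, 57 turned sign, 16 lost the threshold and 4 gained it. Each estimate that turned sign had missed the threshold to begin with. The cause of the changes was not tested, beyond the lower number of animals where some were left out.

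TMM rescaling gave GRM7 0.089 and GRM8 0.046 in HD* minus Control, GRM8 0.063 in HD* minus LD*, GRM8 0.072 in the intake slope, and GRM3 -0.33 in VHD minus HD (adjusted p = 0.0988, and 0.0115 to 0.544 over all its alternatives). It also gave slopes of -0.0042 for GRM8 on the oligodendrocyte score, -0.34 for GRM2 on the striatal neuron score, -0.52 for GRM3 and -0.81 for GRM7 on the astrocyte score, and -0.013 for both GRM5 and GRM8 on the cortical score. A pseudocount of 0.1 gave GRM2 -0.013 in LD* minus Control. With no filter, GRM7 kept its estimate of -0.98 in VHD minus HD (adjusted p = 0.0753, and 0.00628 to 0.375 over all its alternatives).

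In LD* minus Control, GRM8 was 0.13 with cohort as a covariate and 0.11 in cohorts 7a and 7b alone. The striatal neuron score as a covariate gave GRM4 -0.044 in HD* minus Control and GRM3 -0.088 and GRM5 -0.13 in LD* minus Control. In VHD minus HD it gave 0 called genes (limma, 1931 at an unadjusted p under 0.05), with GRM3 at -0.35, GRM4 at -0.20, GRM5 at -1.27 and GRM7 at -1.32. There the score did not overlap between the categories, so score and category cannot be told apart well. The oligodendrocyte score as a covariate gave GRM3 -0.040 and GRM5 -0.047 in LD* minus Control. Without the 3 least correlated libraries GRM4 was -0.056 in HD* minus Control, GRM3 -0.19, GRM4 -0.026 and GRM5 -0.27 in LD* minus Control, and GRM8 0.15 in HD* minus LD*.

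Leaving out 1 animal at a time, and for members whose sign or call changed, HD* minus Control ran from -0.15 to 0.14 for GRM7 and from -0.17 to 0.087 for GRM8. LD* minus Control ran from -0.27 to 0.21 for GRM2, from -0.087 to 0.085 for GRM3, from -0.078 to 0.25 for GRM5 and from -0.16 to 0.020 for GRM8. HD* minus LD* ran from -0.22 to 0.021 for GRM4 and from -0.093 to 0.15 for GRM8. VHD minus HD ran from 476 to 4651 called genes, from -0.61 to -0.47 for GRM3, from -1.16 to -0.74 for GRM7 and from -0.84 to -0.40 for GRM8. The intake slope gave 0 to 1 called genes and ran from -0.28 to 0.060 for GRM8.

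The depth of each library is not given, so no counting error is given for low values such as those of GRM2. Each animal was measured once, and 4 animals per category limit VHD minus HD. No paired analysis was possible because each animal gave a single library.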
